A study of Mus musculus with 8 samples.

Results

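The 10 antiviral interferon effector genes described here are Ifit1, Ifit2, Ifit3, Rsad2, Isg15, Usp18, Mx1, Mx2, Oasl2 and Rtp4. Of them, 9 are among the 18193 genes that have a probe set of a single gene on the arrays. All probe sets annotated to the 10 genes were taken, which gave 13, all on array type A and none on type B. The genes were selected on earlier results of these same arrays, their signals in the 4 RNAs and the difference of truncated Egr3 minus wildtype, so their differences are given as a description with no test. Of the 13 probe sets, 12 belong to 1 gene each. The remaining probe set is annotated to both Isg15 and the pseudogene Gm9706, so its signal cannot be given to Isg15 alone, and Isg15 is left out of counts of genes.

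The study measured total RNA of mouse primary myotubes, the multinucleated cells formed by fusing muscle precursors, on oligonucleotide expression arrays. Of the 4 RNAs, 1 is labelled truncated Egr3 and 1 wildtype, both with the treatment given as growth; muscle spindles, the stretch sensors of muscle, need the transcription factor Egr3 to form. RNA275 is labelled with an acclimatization treatment and RNA276 carries no treatment label, so neither could be placed in a group and both are given as single RNAs. Each RNA was hybridised to 1 array of each of the array types A and B. The labels used here do not give the strain, sex or age of the mice, how many animals or cultures stand behind an RNA, how the truncated Egr3 was made, or whether wildtype refers to Egr3 or to the cells. With 1 RNA per label there is no spread between cultures, no test across replicates and no SD for any value.

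Type I interferons are secreted when cells sense viral nucleic acid. They bind a receptor shared by nearly all cells, and the kinases Jak1 and Tyk2 then pass the signal to a complex that holds Stat2 and Irf9 and binds the interferon-stimulated response element (ISRE) in the promoters of antiviral genes. Muscle cells in culture respond to interferon in this way, and the response can also run at a low tonic level. The 10 genes encode proteins that act directly on viral RNA, viral replication or the response itself.

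The promoters of 4 of the genes are shown because each holds the core letters of the response element. Their lowest and highest RNA, given below, did not single them out, since other effector genes such as Oasl2 share these. Promoter windows of 300 bases, from 250 before to 50 after a transcript start, were taken from RefSeq for the GRCm38.p6 build. They were found for 6 of the 10 genes, Isg15, Oasl2, Rsad2, Ifit2, Ifit3 and Ifit1, with 7 windows in all since Ifit2 has 2. Each sequence below is the stretch from 170 to 51 bases before the start, 120 bases long, read 5′ to 3′ on the strand of the gene. Capitals mark the ISRE core GAAANNGAA or its reverse complement. The Ifit1 stretch is chr19:34640719-34640838 on the plus strand and the Ifit3 stretch is chr19:34583359-34583478 on the plus strand. The Rsad2 stretch is chr12:26456503-26456622 on the minus strand and the Isg15 stretch is chr4:156200869-156200988 on the minus strand.
Ifit1: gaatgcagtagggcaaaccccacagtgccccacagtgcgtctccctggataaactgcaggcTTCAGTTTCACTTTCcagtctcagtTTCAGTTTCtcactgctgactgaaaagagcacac
Ifit3: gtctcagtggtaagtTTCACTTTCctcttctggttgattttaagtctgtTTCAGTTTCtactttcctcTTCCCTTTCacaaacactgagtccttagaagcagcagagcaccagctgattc
Rsad2: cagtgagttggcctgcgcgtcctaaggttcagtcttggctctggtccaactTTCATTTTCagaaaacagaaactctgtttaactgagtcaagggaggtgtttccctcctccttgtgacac
Isg15: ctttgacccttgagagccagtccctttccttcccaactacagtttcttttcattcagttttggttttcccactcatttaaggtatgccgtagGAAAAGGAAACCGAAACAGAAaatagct

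Ifit1, Ifit3 and Isg15 each held 3 matches to the ISRE core and Rsad2 held 1, all between 155 and 58 bases before the start. In Isg15 the 3 matches overlap each other head to tail on the strand of the gene, and in Ifit1 the 2 matches farthest from the start overlap. The other matches do not overlap. In Ifit1, Ifit3 and Rsad2 every match lies on the opposite strand. On both strands, 8.56% of all 32851 promoter windows held at least 1 match, and 0.0639% held at least 3. Oasl2 and both Ifit2 windows held no match to these letters in the window searched. The letters TTCNNNGAA, the site of a STAT dimer, were found in 8.30% of all windows and in 1 of the 7 windows of these genes, at 241 to 233 bases before a start of Ifit2. No match to these letters overlapped a match to the ISRE core in the windows of these genes. A match is a description of the letters, and binding was not measured.

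**Figure D1:**
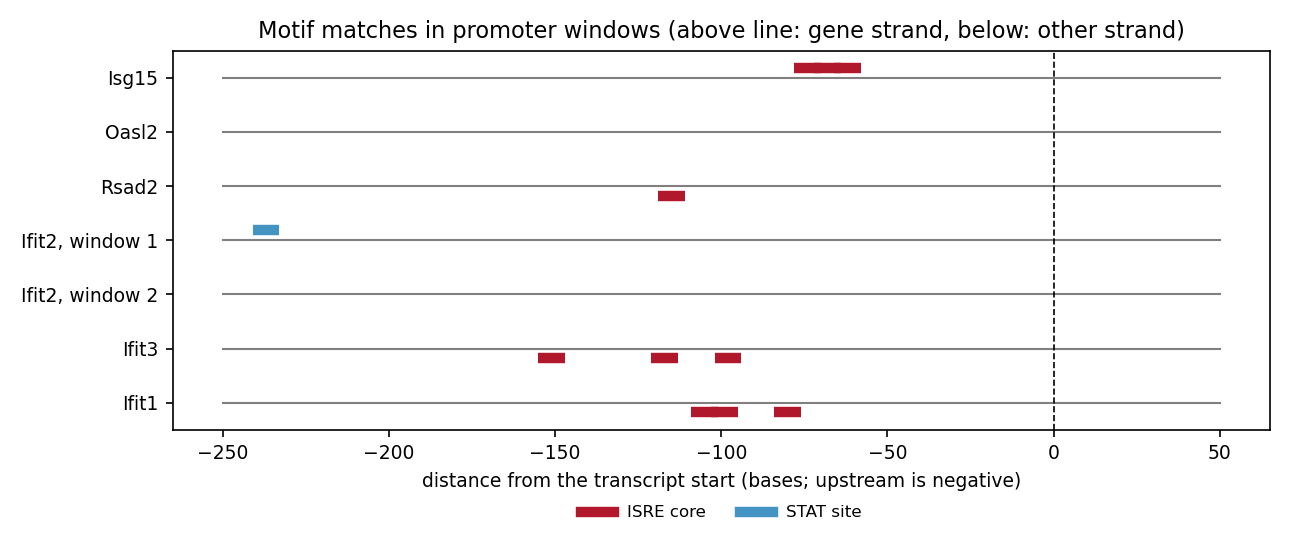
Positions of the ISRE core (red) and STAT site (blue) in 7 promoter windows of 6 antiviral effector genes, with distance from the transcript start in bases on the x axis. The 10 ISRE core matches sit between 155 and 58 bases upstream, in Ifit1, Ifit3, Rsad2 and Isg15.

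Across the arrays, the deposited signals were on a shared scale, and the signal floor used for type A was 67.6, the median of the truncated-Egr3 and wildtype arrays pooled. A signal below the floor was treated as the floor when a difference was taken, and signals below it have no order. All 10 skeletal muscle markers, among them Myog, Acta1 and Ckm, were above the floor in all 4 RNAs, with summed signals of 19640.3 in truncated Egr3, 22454 in wildtype, 19597 in RNA275 and 21646 in RNA276. Technical error was read from 100 probe sets present on both array types. Their SD for a single log2 difference of truncated Egr3 minus wildtype was 0.179. The mean of this difference on type A minus that on type B was -0.139 in log2, an offset that the SD does not include.

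Antiviral effector transcripts were below the floor in the truncated-Egr3 RNA, mostly above it in the wildtype RNA and in RNA275, and highest in RNA276 for each of the 12 probe sets above the floor there. All 13 probe sets read below the floor in truncated Egr3, with signals between 1.78 and 62.7. In the wildtype RNA 10 of the 13 were above the floor, in RNA275 the same number, and in RNA276 12. In bulk RNA such as this, fewer cells that carry a transcript and less of it per cell cannot be told apart.

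**Figure D2:**
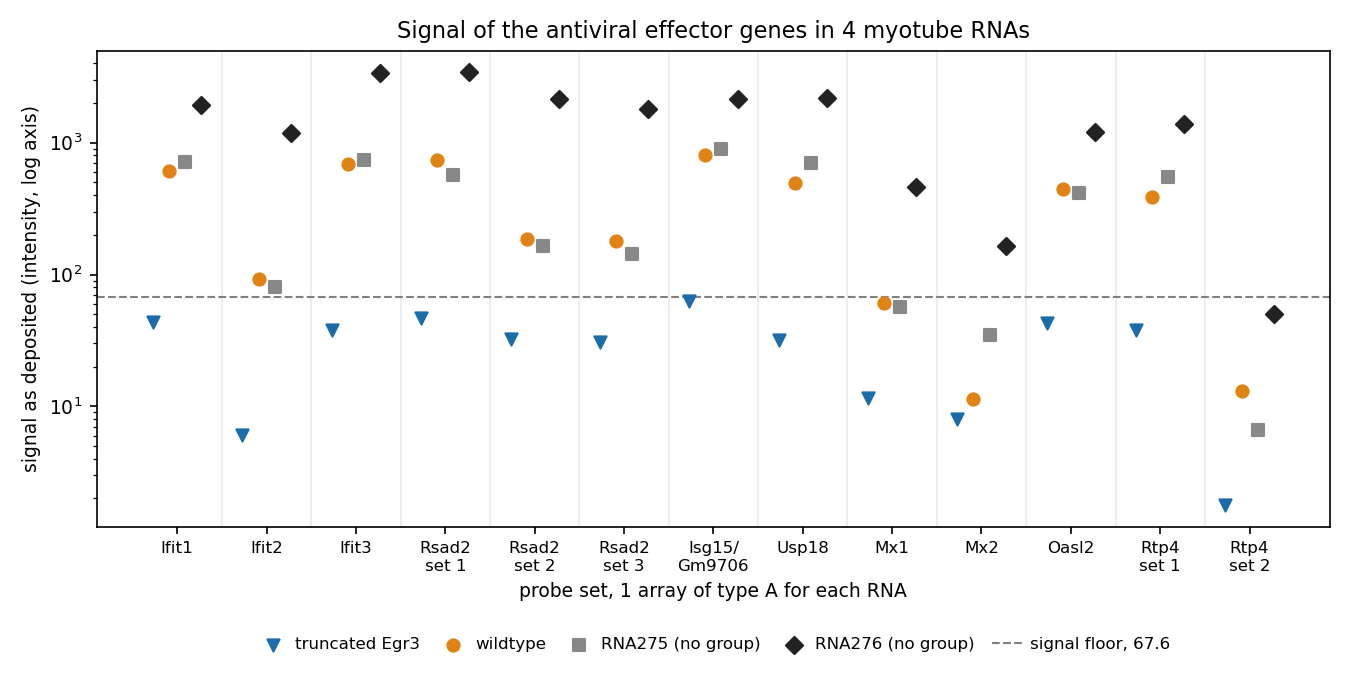
Deposited signal (intensity, log axis) of the 13 probe sets of the antiviral effector genes in truncated Egr3, wildtype, RNA275 and RNA276, 1 array each, with the signal floor of 67.6 dashed. Every truncated-Egr3 point lies below the floor and RNA276 is the highest point of each of the 12 probe sets above the floor there.

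The Ifit genes encode tetratricopeptide-repeat proteins that bind viral RNA or partner proteins in translation, and they lie in a cluster on mouse chromosome 19. Ifit1, which recognises RNA whose cap lacks methylation, read 43.6 in truncated Egr3, 610 in wildtype, 719 in RNA275 and 1939 in RNA276. The truncated-Egr3 signal was at least 9.03-fold lower than the wildtype signal, with a log2 difference of -3.18 as a bound. Ifit3, which in human cells stabilises IFIT1, read 38.2 in truncated Egr3, 692 in wildtype, 738 in RNA275 and 3381 in RNA276. Its truncated-Egr3 signal was at least 10.2-fold lower than wildtype (log2 -3.36). For both genes wildtype and RNA275 were close, and RNA276 stood alone at the top.

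Ifit2, which protects the mouse nervous system from several viruses, had a different shape. It read 6.05 in truncated Egr3, 91.7 in wildtype, 81.0 in RNA275 and 1190 in RNA276. The wildtype signal was near the floor, so the difference of truncated Egr3 minus wildtype is a bound of only -0.44 in log2, under 2-fold. With the lower floor of 44.0 the bound was -1.06, past 2-fold, and with the higher floor of 102 Ifit2 was below the floor in both RNAs. Ifit2 was more than 2-fold above the floor in RNA276 alone.

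Rsad2 encodes viperin, a radical SAM enzyme whose product ends viral RNA chains. Its brightest probe set read 46.6 in truncated Egr3, 736 in wildtype, 571 in RNA275 and 3413 in RNA276. That is at least 10.9-fold lower in truncated Egr3 than in wildtype (log2 -3.45). The second Rsad2 probe set read 32.4 in truncated Egr3, 185 in wildtype, 166 in RNA275 and 2145 in RNA276. The third read 30.7 in truncated Egr3, 181 in wildtype, 144 in RNA275 and 1804 in RNA276. The dimmer pair gave bounds of 2.75-fold and 2.67-fold lower, since their wildtype signals lie nearer the floor. All 3 probe sets had the RNAs in the same order.

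Isg15 is a small ubiquitin-like protein that is joined to other proteins during the response, and Usp18 is the protease that removes it and also dampens signalling at the interferon receptor. The probe set shared by Isg15 and Gm9706 read 62.7 in truncated Egr3, 808 in wildtype, 896 in RNA275 and 2136 in RNA276. It was at least 12.0-fold lower in truncated Egr3 than in wildtype (log2 -3.58), and which of the 2 genes gave the signal was not tested. Usp18 read 31.8 in truncated Egr3, 495 in wildtype, 702 in RNA275 and 2181 in RNA276. Its truncated-Egr3 signal was at least 7.33-fold lower than wildtype (log2 -2.87). Usp18 was 0.50 higher in RNA275 than in wildtype on the log2 scale, beyond 2 technical SDs for that pair of RNAs (0.362).

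Oasl2 belongs to the oligoadenylate synthetase family and carries ubiquitin-like domains, and Rtp4, first known as a helper of receptor transport, is an interferon-induced inhibitor of viral replication. Oasl2 read 42.9 in truncated Egr3, 443 in wildtype, 416 in RNA275 and 1202 in RNA276, at least 6.56-fold lower in truncated Egr3 than in wildtype (log2 -2.71). The brighter Rtp4 probe set read 37.7 in truncated Egr3, 385 in wildtype, 544 in RNA275 and 1395 in RNA276. It was at least 5.69-fold lower in truncated Egr3 than in wildtype (log2 -2.51). The dimmer Rtp4 probe set, at 1.78, 13.0, 6.61 and 50.1 in the same RNAs in that order, was below the floor in all 4 and gives no difference.

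Mx1 and Mx2 encode dynamin-like GTPases that block virus replication, Mx1 in the nucleus and Mx2 in the cytoplasm of mouse cells. Many laboratory strains carry defective copies, and RefSeq lists both genes as transcribed pseudogenes in the C57BL/6J assembly. Mx1 read 11.7 in truncated Egr3, 60.5 in wildtype, 56.7 in RNA275 and 460 in RNA276. Mx2 read 8.06 in truncated Egr3, 11.5 in wildtype, 34.9 in RNA275 and 165 in RNA276. For both, RNA276 was the one RNA above the floor, so no difference between truncated Egr3 and wildtype could be taken. Whether the transcripts in these cultures encode an intact protein was not measured.

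Of the 9 genes with a probe set of their own, 7 were above the floor in at least 1 of truncated Egr3 and wildtype, and Mx1 and Mx2 were not. Of these 7, 6 were at least 2-fold lower in truncated Egr3 and none was higher. Among all 10307 genes measured in that comparison, 1.13% (116) were at least 2-fold lower in truncated Egr3 and 55 genes at least 2-fold higher. With the arrays set to equal medians those counts were 93 and 87. The 7 genes passed the floor through the wildtype RNA alone, so their direction was fixed by the filter. Of 742 genes that passed in that way, 6.6% (49) were at least 2-fold lower. The median of the 7 was -2.87 in log2, against 0.00065 over all measured genes, and is itself a bound. The members were chosen with this difference known, so nothing further is read from these counts.

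**Figure D3:**
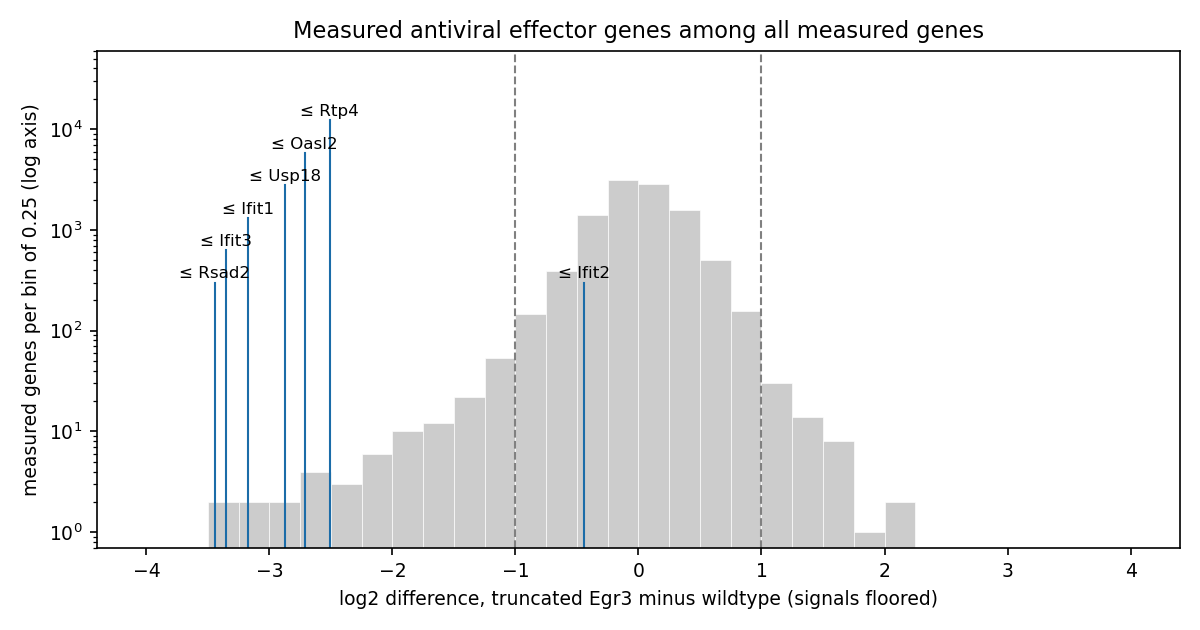
Histogram of the log2 difference of truncated Egr3 minus wildtype over 10307 measured genes (count per bin on a log axis), with the 7 measured antiviral effector genes as lines marked ≤ because each is a bound. Of the 7, 6 lie left of the dashed line at -1 (2-fold lower in truncated Egr3), and Ifit2 lies inside it at -0.44.

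Wildtype and RNA275 were neighbours in the order of levels for every probe set above the floor in both. Over these 10 probe sets, the log2 difference of RNA275 minus wildtype ranged from -0.37 to 0.50, with 5 above and 5 below 0. For 7 of the 10 the difference was within 2 technical SDs (0.362), a spread between arrays that leaves out the spread between cultures. The exceptions were Usp18 and Rtp4, each at 0.50, and the brightest Rsad2 probe set, at -0.37. Over the 100 probe sets on both array types, the mean of this difference on type A minus that on type B was -0.217 in log2. The technical SD was taken around that mean, so it does not include this offset.

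RNA276 was at least 2-fold above each of the 3 other RNAs for all 9 genes with a probe set of their own. Over 11154 genes above the floor in any RNA, 1.26% (141) had that pattern. Truncated Egr3 was at least 2-fold below each of the 3 other RNAs for 6 of the 9 genes, against 0.421% (47) of the same 11154 genes. The 3 genes that missed it were Ifit2, Mx1 and Mx2, all near or below the floor in wildtype and RNA275. Mx1 and Mx2 passed the floor through RNA276 alone, so their direction was fixed by the filter. The share among all genes that passed in that way was not taken. The members were chosen with their signals in these RNAs known, so nothing further is read from these counts. RNA276 has no stated condition, so the counts describe the RNAs and not a treatment.

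The genes were not all equally far below RNA276. Ifit2 in wildtype was at 7.71% of its RNA276 signal and in RNA275 at 6.81%. Oasl2 in wildtype was at 36.9% of its RNA276 signal and in RNA275 at 34.6%. Ifit1 was at 31.5% in wildtype and 37.1% in RNA275, and Rtp4 at 27.6% in wildtype and 39.0% in RNA275. Ifit3 (20.5% in wildtype, 21.8% in RNA275), Usp18 (22.7% in wildtype, 32.2% in RNA275) and the brightest Rsad2 probe set (21.6% in wildtype, 16.7% in RNA275) lay between. The second Rsad2 probe set was at 8.65% in wildtype and 7.73% in RNA275, so probe sets of 1 gene differed in this share by more than 2-fold. How far the spread between genes goes beyond that between probe sets was not tested.

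**Figure D4:**
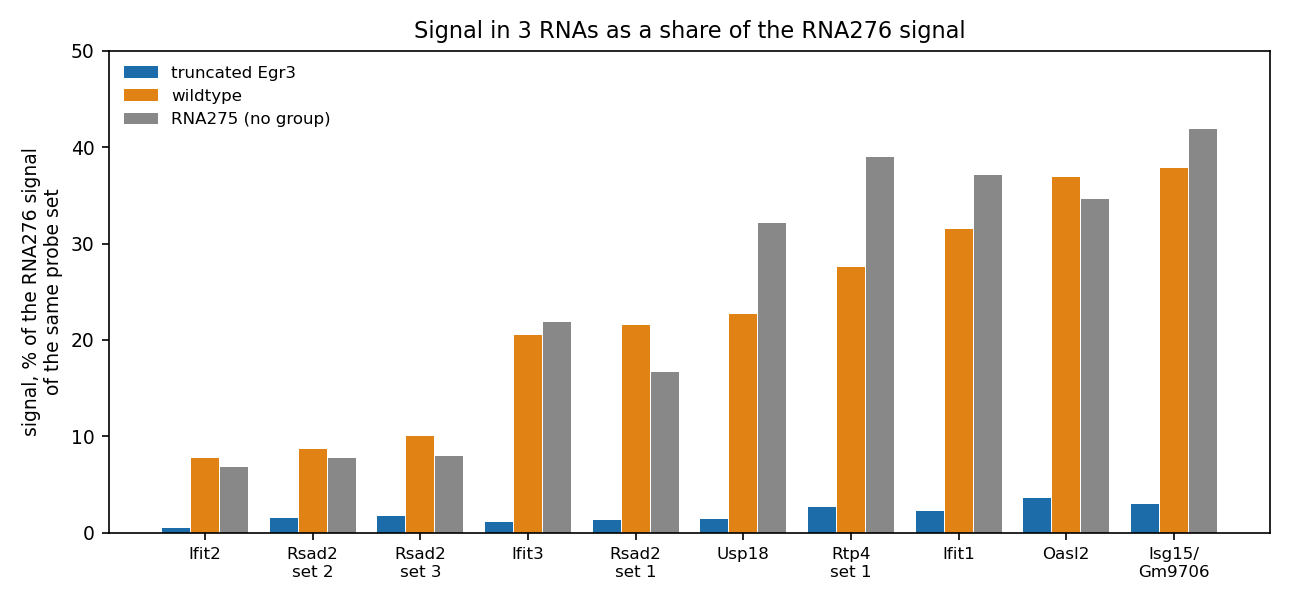
Signal in truncated Egr3, wildtype and RNA275 as a percent of the RNA276 signal of the same probe set, for the 10 probe sets above the floor in wildtype and RNA275 (1 array per bar, bars start at 0). The wildtype share runs from 7.71% for Ifit2 to 37.8% for the Isg15 and Gm9706 probe set, and all truncated-Egr3 bars rest on signals below the floor.

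Outside the 10 genes, the pathway was described by 11 lists covering its steps, with 101 genes on the arrays and 68 measured in truncated Egr3 against wildtype. Of the 68, 23 were at least 2-fold lower in truncated Egr3 and none was higher, against 1.13% lower over all measured genes, or 6.6% of those above the floor in wildtype alone. Their median was -0.59 in log2, and the difference is a bound for 16 of the 68. Those 16 passed the floor through the wildtype RNA alone, so their direction was fixed by the filter. The share of 6.6% is the one to set beside these 16, and not beside all 68. The lists were chosen with these results known, and the same shares stand beside each list count that follows. Over the 80 pathway genes above the floor in any RNA, RNA276 was the highest of the 4 RNAs for 75%, against 32.4% of all genes above the floor in any RNA. Some of the 80, Ube2l6 and Ifit1bl1 among them, passed the floor through RNA276 alone, so for these the filter fixed which RNA was highest. How many passed in that way was not counted, so nothing further is read from this share.

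Between truncated Egr3 and wildtype, the interferon, interferon receptor and Janus kinase genes were below the floor or under 2-fold apart. Of 9 type I interferon genes read, all were below the floor in truncated Egr3, wildtype and RNA276, Ifnb1 included at 46.4 in truncated Egr3, 44.4 in wildtype, 31.5 in RNA275 and 49.3 in RNA276. Ifnz alone passed the floor in RNA275, at 71.3. Ifng, the type II interferon, was below the floor in all 4. The type III interferon genes looked for were not among the genes with a probe set of a single gene, so they were not read. None of the 6 interferon receptor genes was 2-fold apart, with a median of 0.05, and Ifnar2, a chain of the type I receptor, read 135 in truncated Egr3 and 120 in wildtype. Ifngr1, the ligand-binding chain for interferon gamma, had the largest receptor difference at 0.71, higher in truncated Egr3. The Janus kinases were also under 2-fold, at 0.55 for Jak1, 0.17 for Tyk2 and -0.70 for Jak2.

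Of 7 measured STAT and IRF factors, 3 were at least 2-fold lower in truncated Egr3, each as a bound: Irf7 at -3.03 (55.9 in truncated Egr3, 550 in wildtype), Irf9 at -1.63 (56.6 in truncated Egr3, 209 in wildtype) and Stat2 at -1.16 (51.0 in truncated Egr3, 151 in wildtype). Irf1 was at -0.31. Of 10 measured RNA and DNA sensors, 2 were at least 2-fold lower, Ifih1 at -2.36 and Zbp1 at -1.48 as a bound. Ddx58, the RNA helicase RIG-I, was at -0.99 and Dhx58 at -0.91 as a bound. None of 5 measured feedback inhibitors was 2-fold apart. Ptpn6 was at -0.76 as a bound, Ptpn11 at -0.39, Cish at -0.26 and Pias1 at -0.16.

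The enzymes that work with Isg15, Oasl2 and the other effectors differed unevenly. Herc6, the mouse ligase that joins Isg15 to its targets, was at -1.44 (198 in truncated Egr3, 539 in wildtype) and Trim25 at -1.05 (237 in truncated Egr3, 492 in wildtype). Uba7, the activating enzyme for Isg15, was at -0.32 and Arih1 at -0.07. Ube2l6, which carries Isg15 to the ligase, was below the floor except in RNA276, at 100. Of 3 measured genes in the oligoadenylate synthetase and RNase L list, Oasl1 was at -1.42 (70.4 in truncated Egr3, 189 in wildtype) and Oas1a at -1.13 as a bound. Oas1f was at -0.32 as a bound. Among 30 measured other antiviral effectors 14 were at least 2-fold lower. The printed differences ran to -2.59 for Phf11d, -2.38 for Mndal, -2.26 for Xaf1 and -2.04 for Ifi47. The 8 that are bounds, among them Bst2 (-1.78) and Cmpk2 (-0.13, under 2-fold), have no place in that order. Ifit1bl1, a relative of Ifit1, was above the type B floor of 113 in RNA276 alone, at 443.

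**Figure D5:**
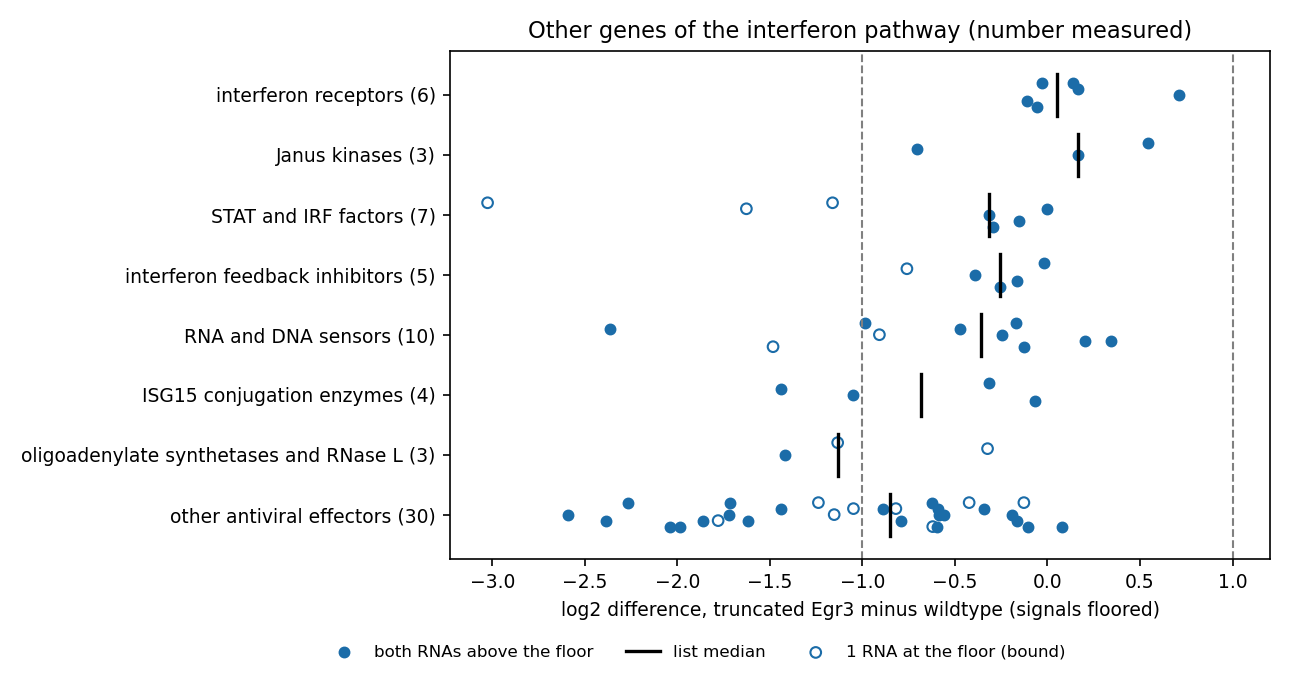
Log2 difference of truncated Egr3 minus wildtype for the measured genes of 8 pathway lists, with the number measured in brackets, filled points where both RNAs were above the floor, open points for bounds and a bar at each list median. Receptors and Janus kinases lie within the dashed 2-fold lines, the other antiviral effectors reach -2.59, and the STAT and IRF factors reach -3.03 as a bound.

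The genes whose profile over the 4 RNAs was most like that of the 9 effector genes were found by the root mean square deviation of the centred log2 signals from their median profile, over 4 RNAs. The 10 nearest were Phf11d, Irf7, Bst2, Parp12, Xaf1, Ifi47, Cxcl10, Iigp1, Lgals9 and Mndal, with deviations from 0.142 to 0.366 in log2. Phf11d read 160 in truncated Egr3, 967 in wildtype, 1362 in RNA275 and 3968 in RNA276. The effector genes themselves lay up to 1.26 (Mx2) from that profile, with Ifit2 at 1.05 and Mx1 at 1.07.

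Markers of cells that could carry an interferon response of their own were read beside these values. Of 17 macrophage and monocyte markers on the arrays, 2 were above the floor in truncated Egr3, 3 in wildtype, 3 in RNA275 and 2 in RNA276. Csf1r and Laptm5 were above the floor in all 4 RNAs, Csf1r at 94.4 in truncated Egr3, 99.7 in wildtype, 89.9 in RNA275 and 116 in RNA276. Cd74, an antigen presentation gene, was above it in wildtype and RNA275 alone, at 41.9 in truncated Egr3, 92.6 in wildtype, 94.2 in RNA275 and 56.0 in RNA276. The other 14, Ptprc, Adgre1, Cd68 and Itgam among them, were below the floor in all 4, and the part of Cd74 in the effector values was not tested. The summed signal of the list was 574 in truncated Egr3, 663 in wildtype, 594 in RNA275 and 583 in RNA276. The summed signal of 5 plasmacytoid dendritic cell and lymphocyte markers was 199.9 in truncated Egr3, 445 in wildtype, 576 in RNA275 and 1476 in RNA276. Without Bst2, which interferon induces in many cells, the sums were 158 in truncated Egr3, 213 in wildtype, 195 in RNA275 and 243 in RNA276. Of the 4 markers left, Siglech was above its floor (type B, 113) in 3 RNAs, at 109 in truncated Egr3, 140 in wildtype, 141 in RNA275 and 182 in RNA276. Its part in the effector values was not tested, and leaving out Bst2 was chosen after its values were seen. Of 7 fibroblast markers 4 were above the floor in every RNA, with sums of 9090 in truncated Egr3, 9441 in wildtype, 7877 in RNA275 and 8722 in RNA276. Among them Dcn read 317 in truncated Egr3 and 157 in wildtype, the one fibroblast marker 2-fold apart there. RNA276 was the highest of the 4 RNAs for 3 of the 10 muscle markers and 1 of the 4 fibroblast markers above the floor. It had the lowest signal of the matrix gene Postn, 461, against 1734 in truncated Egr3, 1539 in wildtype and 977 in RNA275. The muscle gene Ttn was also lowest there, at 354, against 1627 in truncated Egr3, 1850.5 in wildtype and 704 in RNA275. Postn and Ttn were named after their values were seen. The part of any of these markers in the effector values was not tested. Endothelial markers summed to 124 in truncated Egr3, 141 in wildtype, 108 in RNA275 and 94.5 in RNA276.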

How the data were processed

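The authors deposited 1 linear intensity per probe set and array. All 8 arrays have a mean of 150.0 once the highest and lowest 2% of values are dropped, and that scale was kept. What software made the values is not given in the sources used here. Probe sets were named from the platform table, updated by gene number to RefSeq, and those with several genes were left unnamed: 20393 of type A and 14674 of type B had 1 gene. For a gene with several probe sets the brightest was used, on type A where present. Signals were floored at the 50th percentile (type A, 67.6) or 60th (type B, 113) of the truncated-Egr3 and wildtype arrays pooled, then turned to log2. A gene was measured when at least 1 of these 2 arrays passed the floor, and the fold is a bound where the other did not.

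The member genes and gene lists were chosen with earlier results of these data known. Genes outside the members were named by rule: up to 4 measured genes a list with the largest absolute difference, and the 10 nearest in profile. Ifnb1, Ifnz, Ifng, Ube2l6, Cmpk2, Ifit1bl1 and the marker genes named were chosen after their values were seen. Alternatives were 3 scalings, 3 floors, 2 thresholds, the median over probe sets, and leaving out probe sets marked for cross-hybridisation. Calls were tested on simulated data, with fold changes planted only in genes well above the floor. Differences that are bounds, as for the effector genes, were not covered by that simulation. The number of arrays limits the precision. Python 3.11.15, numpy 2.4.6, pandas 2.3.3, statsmodels 0.14.6 and matplotlib 3.10.9 were used.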

Additional observations from a re-analysis of the deposited data

Results flagged for a closer look

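RNA276 is in neither of the 2 labelled groups and so stands outside the comparison of truncated Egr3 with wildtype. The probe sets of the antiviral effector genes, the brightest of each, read at least 2-fold above both the truncated-Egr3 and the wildtype RNA in it, signals being floored. In RNA276 the signals were 1939 for Ifit1, 1190 for Ifit2, 3381 for Ifit3, 3413 for Rsad2, 2181 for Usp18, 460 for Mx1, 165 for Mx2, 1202 for Oasl2 and 1395 for Rtp4. The probe set shared by Isg15 and Gm9706 read 2136 there. RNA275, which is also outside that comparison, had none at that size.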

How the results depend on the processing

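The 6 genes at least 2-fold lower in truncated Egr3 numbered 6 to 8 under all alternatives run, with 7 at the lower floor and 8 with no floor. The median of the measured members was -3.41 with the lower floor, -2.44 with the higher floor and -3.81 with no floor, since bounds move with the floor. All genes at least 2-fold lower numbered 185, 76 and 1206 under those floors in that order, 473 at a threshold of 1.5-fold and 38 at 3-fold. Genes at least 2-fold higher numbered 87 with equal medians, 84 with the lower floor, 603 with no floor, 484 at 1.5-fold and 8 at 3-fold. With the median over probe sets, the differences of Rsad2 and Rtp4 were -1.46 and -1.56. With no floor Ifit2 was at -3.92, Mx1 at -2.38 and Mx2 at -0.51, from signals at which probe sets cannot be ordered. Equal medians moved the median of measured type B genes to 0.17 from 0.03, and that of type A, which holds the effector genes, to 0.05 from -0.01. No paired analysis was possible because each label has 1 RNA.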

Other observations

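Genes next to the antiviral effector genes on the chromosome were read after the values of some of them had been seen. Among protein-coding genes and transcribed pseudogenes of the RefSeq table there were 17 such neighbours outside the 10 genes, all with a probe set, and 7 were above the floor in any RNA. RNA276 was at least 2-fold above the 3 other RNAs for 3 of those 7, against 1.26% of the 11154 genes above the floor in any RNA. Cmpk2, a mitochondrial nucleotide kinase beside Rsad2, read 8.73 in truncated Egr3, 73.8 in wildtype, 108 in RNA275 and 915 in RNA276. Its wildtype signal was at 8.07% of its RNA276 signal and its RNA275 signal at 11.8%. Oasl1, beside Oasl2, read 70.4 in truncated Egr3, 189 in wildtype, 124 in RNA275 and 1249 in RNA276, with the wildtype signal at 15.1% of RNA276. The third was Ifit1bl1, beside Ifit3, which passed the floor through RNA276 alone, so its direction was fixed by the filter. All 3 are on the pathway lists above, which were chosen with results known, so nothing further is read from their count. The other 4 that passed the floor were Agrn, Lipa, Masp1 and Perm1, and none of these had that pattern. Agrn, which clusters acetylcholine receptors at the nerve-muscle synapse and lies beside Isg15, read 94.7 in truncated Egr3, 187 in wildtype, 201 in RNA275 and 137 in RNA276, so RNA276 was not its highest RNA.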
